A study of Homo sapiens with 36 samples.

Results

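SPP1 encodes osteopontin, a secreted, phosphorylated glycoprotein, and was measured in HepG2 human hepatoma cells after 6 or 24 h with the fatty acid DHA (docosahexaenoic acid), with propionate (PRO), with protocatechuic acid (PCA), with DHA+PRO or DHA+PCA, or with vehicle. It is 1 of the 18932 genes in the deposited count table. The gene was selected on these same data, for its higher level with DHA at 24 h and its still higher level with DHA+PRO, so the values of DHA, DHA+PRO and Ctrl at 24 h are given below as a description, with no test. Tests compared libraries that the choice did not use. These were the 6 h libraries and the DHA+PCA, PCA and PRO libraries of 24 h, those of PRO being tested only against 6 h. The estimate of the spread was shared by all groups of the fit. No further gene was part of the selection.

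Osteopontin belongs to the small integrin-binding ligand, N-linked glycoproteins. It holds an arginine-glycine-aspartate (RGD) motif that binds integrins of the cell surface, a neighbouring site exposed when thrombin cuts the protein, and regions bound by CD44. Bone cells, macrophages, activated stellate cells, bile duct epithelium and many carcinomas make it, while resting hepatocytes make little. In liver disease it is known for its links to inflammation, fibrosis and hepatocellular carcinoma.

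HepG2 is an established line with many traits of hepatocytes. The 36 libraries fell into 12 groups of 3, each replicate being an independent culture from which several wells were pooled, so that p-values measure the spread between cultures of 1 line. DHA, an n-3 long-chain fatty acid, was given at 50 µM in ethanol as a complex with serum albumin, PRO, a short-chain fatty acid of gut microbes, at 70 µM in water, and PCA, a phenolic acid formed from anthocyanins, at 20 µM in DMSO. Control cells (Ctrl) received albumin, ethanol and DMSO in matching amounts. All groups were kept in serum-free medium during the incubation. Libraries held 4659744 to 10788964 gene reads at 6 h and 5617341 to 42326734 at 24 h, the deepest being DHA+PRO replicate 2 at 24 h. SPP1 itself had 1135 to 3674 reads at 6 h and 1197 to 18212 at 24 h, which gave a counting error between 0.741% and 2.97% of its level.

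The deposited table placed SPP1 (NM_000582) on the forward strand at chr4:88896802-88904563 of GRCh37 (hg19), a span of 7762 bp with a counted transcript length of 1583 bp. It had 1 value per gene and library, so the splice forms of osteopontin could not be told apart. A stretch of 78 bases around the integrin-binding motif, inside exon 6 of 7 of the GENCODE transcript ENST00000395080, is shown because every coding form of the gene shares its motif. It lies at chr4:88902855-88902932 on the forward strand of GRCh37, and the capitals mark the codons of arginine, glycine and aspartate.
SPP1 around the RGD codons: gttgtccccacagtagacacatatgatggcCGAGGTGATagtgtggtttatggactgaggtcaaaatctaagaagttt
These codons were present in all 6 coding GENCODE transcripts. The motif began at residue 159 of 314 in the longest form, at 145 of 300 in the form lacking an upstream exon, and at 132 of 287 in another shorter form. Reads from each of these forms would count toward the same SPP1 value.

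The sequence just upstream of the deposited start is shown because the lists below include factors known to act on this promoter. It is the part of the RefSeq promoter window (from 250 bases before the RefSeq start to 50 bases after it) that lies before the deposited start, at chr4:88896616-88896801 on the forward strand of GRCh37. Capitals mark the match to AACCACA, the letters bound by RUNX factors.
SPP1 upstream: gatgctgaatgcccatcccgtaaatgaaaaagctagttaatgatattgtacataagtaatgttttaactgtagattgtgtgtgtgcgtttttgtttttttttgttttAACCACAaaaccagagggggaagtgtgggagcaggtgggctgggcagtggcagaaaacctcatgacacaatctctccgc
On both strands, AACCACA occurred in 4.27% of 35116 RefSeq promoter windows of the same length (GRCh38.p14). No match in the SPP1 window was found for TATAAA (11.5% of all windows), CCAAT (34.6%), GGGCGG (45.0%), CACGTG (7.26%), TGACTCA (4.95%), AGGTCA (13.8%), TCACCCCAC (0.430%) or TGACNNNGC (13.3%). A match is a description of letters, and its absence says only that these letters are not in this window.

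SPP1 was an abundant transcript. Ranked by RPKM (reads per kilobase of transcript, scaled to library size) among 18924 genes, it stood between places 213 and 574 in the 6 h libraries and between 178 and 500 in the 24 h libraries. Levels are given below as CPM (read counts scaled to a common library size, with TMM factors), which compare SPP1 between libraries, while RPKM is used where genes are compared with each other.

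After 24 h the control libraries held 198, 219 and 226 CPM of SPP1 in replicates 1, 2 and 3. With DHA the levels were 301, 338 and 334 CPM, and with DHA+PRO they were 419, 439 and 489 CPM. All DHA libraries lay above all controls, and all DHA+PRO libraries above all DHA libraries, as the selection required. Such an order, with every library of the former group above every library of the latter, was met by 4.25% of the 11893 genes tested for DHA over Ctrl, by 7.33% for DHA+PRO over Ctrl and by 6.61% for DHA+PRO over DHA.

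On the log2 scale of the edgeR fit, SPP1 was higher by 0.60 (SE 0.10) with DHA than in Ctrl, a fold of 1.52, and by 1.06 (SE 0.10) with DHA+PRO, a fold of 2.09. DHA+PRO exceeded DHA by 0.46 (SE 0.10), a fold of 1.37. The differences were alike in the 3 replicate numbers. DHA minus Ctrl was 0.60, 0.63 and 0.56 in numbers 1, 2 and 3, and DHA+PRO minus DHA was 0.48, 0.38 and 0.55. In bulk samples, a change in the number of cells that make a transcript and a change in its amount per cell cannot be told apart.

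PRO without DHA gave 266, 266 and 335 CPM at 24 h. All 3 libraries lay above the controls, an order met by 4.94% of genes, and replicate 3 reached the levels of the DHA libraries. The log2 difference from Ctrl was 0.42 (SE 0.10), a fold of 1.34. Against PRO, DHA+PRO was higher by 0.64 (SE 0.10) with no overlap, an order met by 5.32% of genes. The log2 difference of DHA+PRO from Ctrl exceeded the sum of the DHA and PRO differences by 0.04 (SE 0.15). These values share their control libraries with those that chose the gene and carry no test.

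PCA alone gave 208, 253 and 229 CPM at 24 h. The PCA and Ctrl libraries overlapped, with a log2 difference of 0.10 (SE 0.10). DHA+PCA gave 328, 397 and 411 CPM, all above Ctrl, an order met by 5.44% of genes, and the log2 difference was 0.83 (SE 0.10), a fold of 1.78. The lowest DHA+PCA library lay below the highest DHA libraries, and DHA+PCA minus DHA was 0.23 (SE 0.10). DHA+PCA exceeded the sum of the DHA and PCA differences by 0.12 (SE 0.15).

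**Figure D1:**
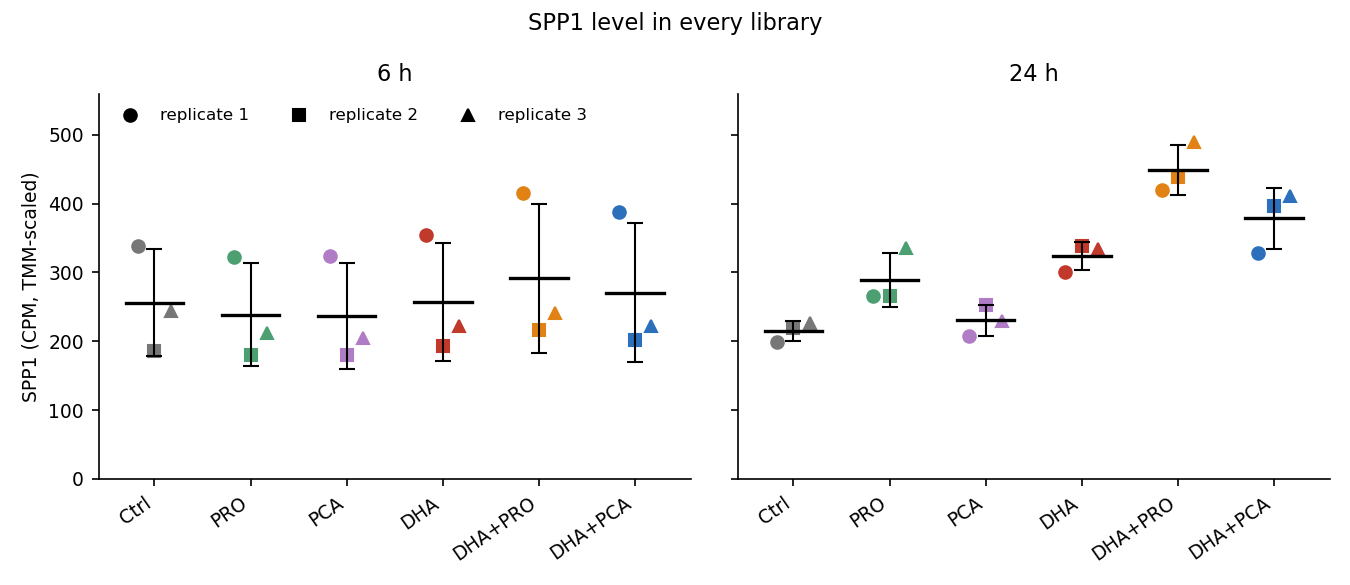
SPP1 level in CPM (TMM-scaled) in each of the 36 libraries, by treatment, at 6 h (left) and 24 h (right). Symbols mark the replicate number, black lines the group mean and bars the SD (n = 3). At 24 h the DHA+PRO libraries (419 to 489 CPM) sit above all others, while at 6 h the replicate 1 libraries (323 to 416 CPM) sit above all others.

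The comparison of DHA+PCA with PCA at 24 h asks whether DHA raised SPP1 in cells that also had PCA. Neither group was used to choose the gene, though the estimate of the spread came from all 18 libraries of 24 h. SPP1 rose with DHA in this setting. The 3 DHA+PCA libraries (328 to 411 CPM) lay above the 3 PCA libraries (208 to 253 CPM), an order met by 6.06% of genes. The log2 fold change was 0.73 (SE 0.10, 95% interval 0.51 to 0.94), a fold of 1.66, with an adjusted p of 0.000404 (edgeR's quasi-likelihood test, Benjamini-Hochberg over 11893 genes). Of all genes tested in this comparison 0.277% passed, 5 upward and 28 downward. SPP1 had the lowest adjusted p of the 5 genes that rose, and the other 4 were AKR1B15, AKR1B10, AKR1C2 and NQO1. The difference was present in each replicate number, at 0.66, 0.65 and 0.84. The exact two-sided permutation test of the SPP1 values alone gave p = 0.1, the smallest value that 3 against 3 libraries allow. In a fit of only the groups compared, the log2 fold change was 0.73 (SE 0.10, adjusted p = 0.000877, edgeR).

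At 6 h the SPP1 levels followed the replicate number. Control libraries held 339, 185 and 244 CPM in replicates 1, 2 and 3. With DHA the levels were 355, 193 and 223 CPM, and with DHA+PRO they were 416, 217 and 242 CPM. DHA+PCA gave 387, 202 and 223 CPM. In every treatment replicate 1 was the highest, replicate 2 the lowest and replicate 3 between them. PRO gave 323, 180.5 and 212 CPM, and PCA gave 324, 179.6 and 205 CPM. Over the 6 treatments, the replicate 1 libraries spanned 323 to 416 CPM, the replicate 2 libraries 179.6 to 217 CPM and the replicate 3 libraries 205 to 244 CPM, so that those of replicate 1 overlapped neither of the other sets. Total reads did not set replicate 1 apart from replicate 2, with 8638301 to 10788964 in the former and 6315078 to 10600181 in the latter.

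In a two-way split of the log2 CPM at 6 h, the replicate number held 92.3% of the sum of squares of SPP1 and treatment 6.26%. The median gene had 28.96% for replicate and 18.95% for treatment, and the replicate share of SPP1 was above that of 99.9% of 11724 genes. At 24 h the same split gave 5.82% for replicate and 91.5% for treatment, the latter being a value that the selection favoured. The SD of SPP1 within a group, on the log2 scale, was accordingly 0.43 to 0.51 at 6 h and 0.09 to 0.19 at 24 h. The library numbers in the labels were below 1900 for replicates 1 and 2 and above it for replicate 3, apart from DHA+PRO replicate 2 at 6 h, which also lay above it. The labels do not say what these numbers stand for. The labels do not say what set replicate 1 of 6 h apart.

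No difference of SPP1 between treatments passed the test at 6 h. The log2 fold change was 0.01 (SE 0.31, 95% interval -0.65 to 0.66) for DHA against Ctrl, 0.18 (SE 0.31) for DHA+PRO and 0.07 (SE 0.31) for DHA+PCA, and adjusted p was 1.00 for each (edgeR). In each of these 3 comparisons 0.0168% of the 11872 genes tested passed. PRO against Ctrl gave -0.10 (SE 0.31) and PCA against Ctrl -0.12 (SE 0.31), and 0% of genes passed in either (edgeR, with 196 and 86 at an unadjusted p under 0.05). DHA+PRO against DHA gave 0.17 (SE 0.31), with 0% of genes passing (168 unadjusted). The interval for DHA at 6 h included the 0.60 seen at 24 h. With the replicate number as a block, which takes out the spread between the numbers, the value was -0.0025 (SE 0.0728, adjusted p = 0.996, edgeR).

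Setting all 9 libraries with DHA against the 9 without it at 6 h, SPP1 had a log2 fold change of 0.16 (SE 0.18, 95% interval -0.22 to 0.54, adjusted p = 1.00, edgeR), and 0.202% of genes passed. Leaving out 1 library moved it between 0.04 and 0.26. An exact permutation test that exchanged the labels within each partner treatment, across replicate numbers, gave p = 0.469 over 8000 allocations, two-sided. The spread between the numbers enters this test, so it cannot decide whether a small DHA effect was present. With the replicate number as a block, the pooled value was 0.15 (SE 0.04, unadjusted p = 0.00206, adjusted p = 0.237, edgeR). Within the replicate numbers the difference was 0.23, 0.16 and 0.06, above 0 in all 3. DHA+PRO minus DHA was likewise above 0 in each number, at 0.23, 0.16 and 0.12. DHA minus Ctrl had no common direction, with 0.07 and 0.06 in replicates 1 and 2 and -0.13 in replicate 3. PRO and PCA were below Ctrl in each number, by a mean of -0.10 (SD 0.09) and -0.12 (SD 0.11).

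**Figure D2:**
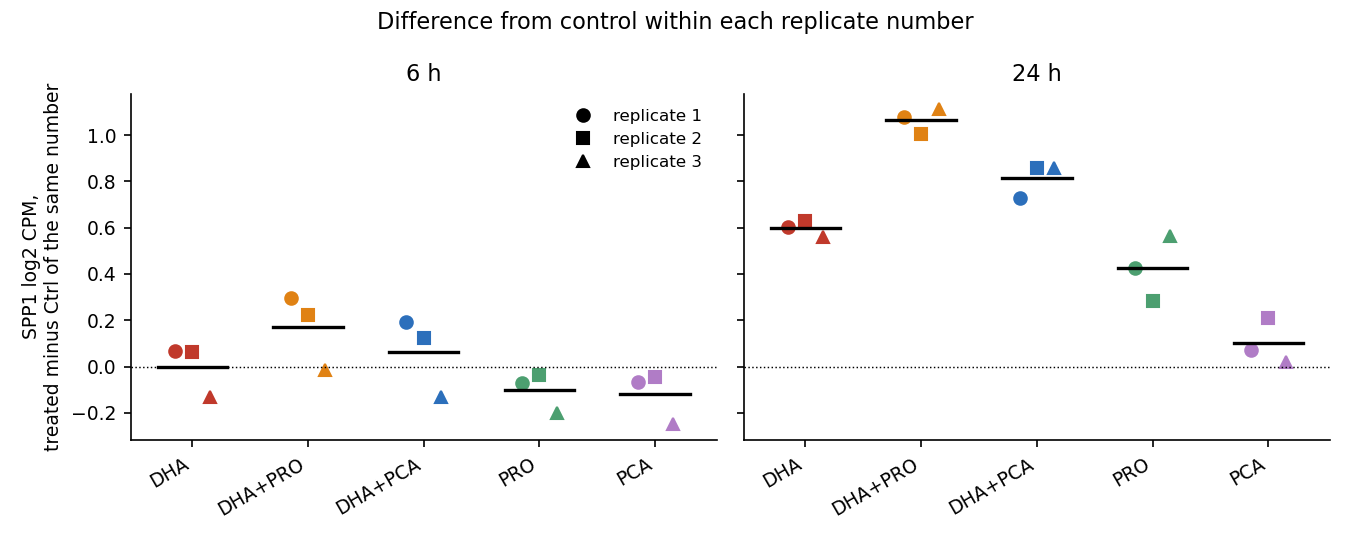
Difference of SPP1 log2 CPM between each treated library and the control library of the same replicate number and time, at 6 h (left) and 24 h (right). Black lines are the means of the 3 differences. At 24 h every difference with DHA, DHA+PRO and DHA+PCA is above 0.5, while at 6 h the differences lie between -0.25 and 0.30.

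The comparison of time points was tested in the 3 groups outside the selection. With PRO, SPP1 had a log2 fold change of 0.28 (SE 0.25, adjusted p = 0.502, edgeR) at 24 h against 6 h, while 14.1% of 12046 genes passed in this group, and leaving out 1 library moved the value between 0.11 (without replicate 2 of 6 h) and 0.56 (without replicate 1 of 6 h). With PCA it was -0.03 (SE 0.25, adjusted p = 0.940), and 27.7% of genes passed. With DHA+PCA it was 0.51 (SE 0.25, adjusted p = 0.158), and 18.8% of genes passed. The last value was 0.87 (adjusted p = 0.0232, edgeR) without replicate 1 of 6 h, 0.33 (adjusted p = 0.476) without replicate 2 and 0.38 (adjusted p = 0.386) without replicate 3. In each of these groups replicate 1 was lower at 24 h than at 6 h and replicates 2 and 3 were higher, as in DHA+PCA, where the differences were -0.24, 0.97 and 0.88.

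The change of the DHA effect with time, measured as DHA+PCA over PCA at 24 h minus the same at 6 h, was 0.54 (SE 0.35, 95% interval -0.18 to 1.26, adjusted p = 0.958, edgeR), and 0% of genes passed (457 at an unadjusted p under 0.05). In the 3 replicate numbers the difference of differences was 0.40, 0.48 and 0.72. With the replicate number as a block within each time, the change was 0.55 (SE 0.10, adjusted p = 0.0183, edgeR) and passed. With a block shared by both times, chosen after seeing the data, it was 0.55 (SE 0.29, adjusted p = 0.684, edgeR) and did not pass. The result thus depends on how the replicate numbers are treated. DHA+PCA minus PCA at 6 h was given no test of its own, and in the 3 numbers it was 0.26, 0.17 and 0.12. Leaving out 1 library moved the change with time between 0.24 (without PCA replicate 1 of 6 h) and 0.90 (without DHA+PCA replicate 1 of 6 h).

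By group mean, SPP1 was highest with DHA+PRO at 24 h (449 ± 36.2 CPM, SD, n = 3), and this was the single step in the order of the 12 groups at which neighbours did not overlap. There followed DHA+PCA at 24 h (379 ± 44.2), DHA at 24 h (324 ± 20.4), DHA+PRO at 6 h (291 ± 109), PRO at 24 h (289 ± 39.6), DHA+PCA at 6 h (271 ± 101), DHA at 6 h (257 ± 85.9), Ctrl at 6 h (256 ± 77.5), PRO at 6 h (238 ± 74.8), PCA at 6 h (236 ± 76.9), PCA at 24 h (230.2 ± 22.5) and Ctrl at 24 h (215 ± 14.6). Each of these overlapped the next in the order. Per length, the extremes were 284 ± 22.9 RPKM with DHA+PRO at 24 h and 136 ± 9.20 RPKM in Ctrl at 24 h.

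Markers were checked because macrophages, bile duct cells and stellate cells also make osteopontin. All 8 hepatocyte markers were above 1 RPKM, led by ALB (11639 RPKM on average) and AFP (4124 RPKM). Of 8 macrophage markers 4 were above 1 RPKM, nearly all of it LYZ (962 RPKM), while PTPRC, CSF1R, CD163 and MARCO were near 0. The summed macrophage markers were 1042 to 1361 RPKM in the 24 h libraries with DHA and 1158 to 1713 RPKM in those without it. Bile duct and progenitor markers were above 1 RPKM for 5 of 8, among them KRT19 (149 RPKM) and EPCAM (105 RPKM), with sums of 341 to 406 RPKM with DHA and 371 to 438 RPKM without it at 24 h. Stellate or fibroblast markers were above 1 RPKM for 2 of 6, ACTA2 and PDGFRB, with sums of 35.2 to 50.9 RPKM with DHA and 23.8 to 43.4 RPKM without it at 24 h. Their part in the SPP1 values was not tested. The 5 endothelial markers summed to at most 0.386 RPKM.

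Of the receptors of osteopontin, those that HepG2 cells expressed were integrin subunits. Of 11 receptor genes 3 passed the filter on low counts: ITGB1 (56.2 RPKM on average over the 36 libraries), ITGB5 (31.2 RPKM) and ITGAV (13.5 RPKM), which pair as receptors of the RGD motif. CD44 averaged 0.0110 RPKM, near the limit of detection. By edgeR 0 of the 3 were called (0 also at an unadjusted p under 0.05) in the pooled DHA comparison at 6 h, in that at 24 h (1.23% of all genes called), in DHA+PRO against Ctrl at 24 h (0.395%) and in DHA+PCA against PCA. In DHA+PCA against PCA the receptors spanned -0.21 to 0.12 on the log2 scale, beside 0.73 for SPP1. For the pooled DHA effect at 24 h their median was -0.11, against 0.01 for all genes.

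Among 15 enzymes that cleave or modify osteopontin 8 were tested and 0 were called in any of these 4 comparisons by edgeR (1 at an unadjusted p under 0.05 in the pooled 6 h comparison and 0 in the others). With 0.202% to 1.23% of all genes called, 0 of 8 is near the background. They included CTSD (cathepsin D, 265 RPKM), GALNT1, which starts O-linked glycan chains (30.6 RPKM), F2 (prothrombin, whose active form cuts next to the RGD motif, 212 RPKM) and FAM20C, the kinase that phosphorylates secreted proteins (15.5 RPKM). FAM20C had a log2 fold change of 0.21 (SE 0.07, adjusted p = 0.963) with DHA at 6 h and 0.01 (SE 0.06) at 24 h. The matrix metalloproteases MMP2, MMP3, MMP7, MMP9 and MMP12 averaged at most 0.137 RPKM. The 6 genes listed for the glycoprotein family and its relatives, with roles in bone and tooth matrix, were DSPP, DMP1, IBSP, MEPE, AMTN and ENAM. All were below 0.137 RPKM, and DSPP and IBSP had no reads. Beside these 6 genes, SPP1 was the single one expressed at a testable level.

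Of 38 transcription factors known to act on the SPP1 promoter 34 were tested, with ETV4 (134 RPKM), MYC (106 RPKM) and the hepatocyte factor HNF4A (97.9 RPKM) among the most abundant. RUNX2 and ETS1, classical activators of osteopontin, and GLI1 and GLI2 were below the filter. RUNX1, of the same family as RUNX2, was expressed (4.35 RPKM) and tested. It had 0.22 (SE 0.09, adjusted p = 0.373, edgeR) for the pooled DHA effect at 24 h. No factor was called in any of the 4 comparisons by edgeR (1, 3, 2 and 2 at an unadjusted p under 0.05), where 0.202%, 1.23%, 0.395% and 0.277% of all genes were called, so that 0 of 34 is near the background. MYC had 0.07 (SE 0.08) for the pooled DHA effect at 24 h and HNF4A -0.03 (SE 0.06), and the median of the 34 was -0.02. These are transcript levels, and a factor can act without a change in its own transcript.

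Of 16 signalling genes downstream of osteopontin receptors 15 were tested and 0 were called by edgeR (0, 1, 1 and 1 at an unadjusted p under 0.05), again near the background of 0.202% to 1.23%. RAC1 (77.7 RPKM), AKT1 (60.7 RPKM) and ILK, the integrin-linked kinase (56.0 RPKM), led this list in level. For the pooled DHA effect at 24 h the 15 genes spanned -0.15 to 0.11. ILK gave the lowest of these values, -0.15 (SE 0.05, adjusted p = 0.281).

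Among secreted liver proteins related to osteopontin in kind, such as matricellular and stress proteins, those called with DHA at 24 h were lower. All 15 genes were in the table, with CCN1 and CCN2 under their older symbols CYR61 and CTGF, and 13 of them were tested at 24 h. At 6 h none of the 12 tested was called (edgeR, 1 at an unadjusted p under 0.05). In the pooled DHA comparison at 24 h 0 rose and 3 fell, where 1.23% of all genes were called, 34 upward and 112 downward. CYR61 fell by 0.61 on the log2 scale (SE 0.10, adjusted p = 0.000809) and CTGF, a matricellular growth factor of fibrosis, by 0.48 (SE 0.08, adjusted p = 0.000784, edgeR for both). CTGF was also called in DHA+PRO against Ctrl, at -0.70 (SE 0.14, adjusted p = 0.0140). None was called in DHA+PCA against PCA (5 of the 13 at an unadjusted p under 0.05, beside 780 of all 11893 genes), where CTGF stood at -0.54 (SE 0.14). FN1 (fibronectin) and SPARC, another bone matrix glycoprotein, had -0.18 (SE 0.07) and 0.29 (SE 0.09) in the pooled 24 h comparison and did not pass. In DHA+PCA against PCA they had -0.22 (SE 0.13) and 0.40 (SE 0.15). The median of the 13 genes was -0.12, against 0.01 for all genes.

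**Figure D3:**
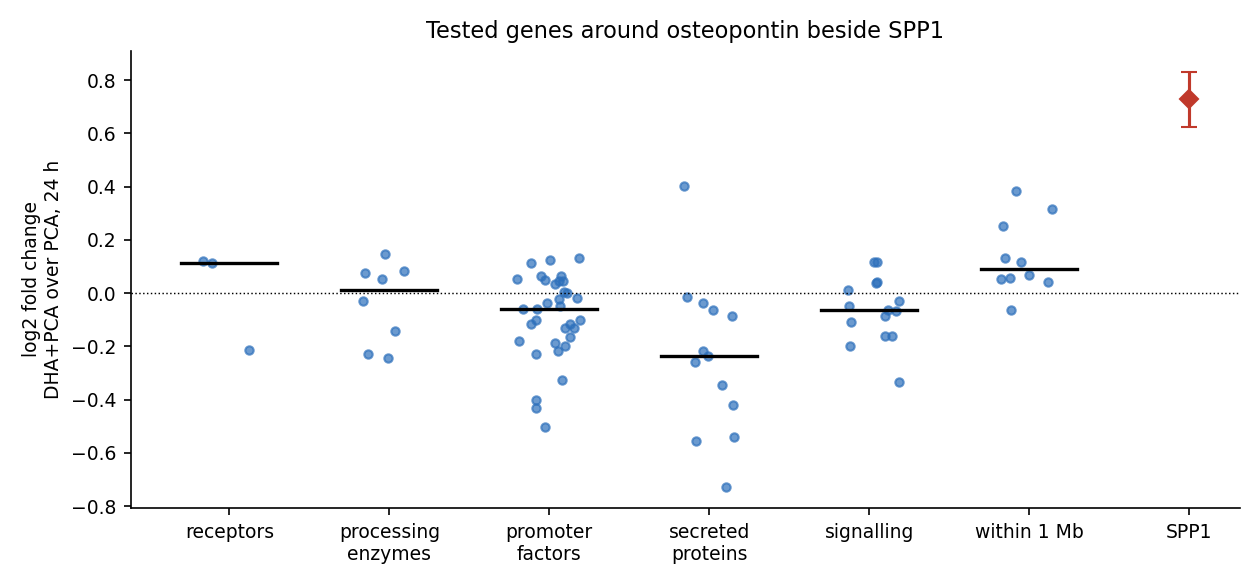
Log2 fold change of DHA+PCA over PCA at 24 h for the tested members of each list and for the genes within 1 Mb of SPP1 (points, with medians as black lines) and for SPP1 (diamond, with its SE as a bar). SPP1 at 0.73 lies above every listed gene, and the lowest median, -0.23, is that of the secreted proteins.

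The neighbours of SPP1 on chromosome 4 were listed by distance. Within 1 Mb on either side 17 genes were listed and 10 were tested, and 0 were called in any of the 4 comparisons by edgeR (0, 1, 1 and 0 at an unadjusted p under 0.05), which at 0.202% to 1.23% of all genes called is near the background. The nearest tested gene, PKD2, which encodes a calcium channel and starts 31.997 kb downstream of the SPP1 start, had a log2 fold change of 0.25 (SE 0.17, adjusted p = 0.805) for DHA+PCA over PCA and 0.07 (SE 0.10) for the pooled DHA effect at 24 h. ABCG2, a transporter 115 kb away, had 0.06 (SE 0.22) and -0.18 (SE 0.12). The other tested neighbours were KLHL8, HSD17B11 and NUDT9 upstream and PPM1K, HERC6, HERC3, NAP1L5 and FAM13A downstream, and with PKD2 and ABCG2 they spanned -0.28 to 0.12 for the pooled DHA effect at 24 h. DSPP, DMP1, IBSP and MEPE of the same glycoprotein family lie within 367 kb upstream of SPP1 and had 0.0222 RPKM or less.

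**Figure D4:**
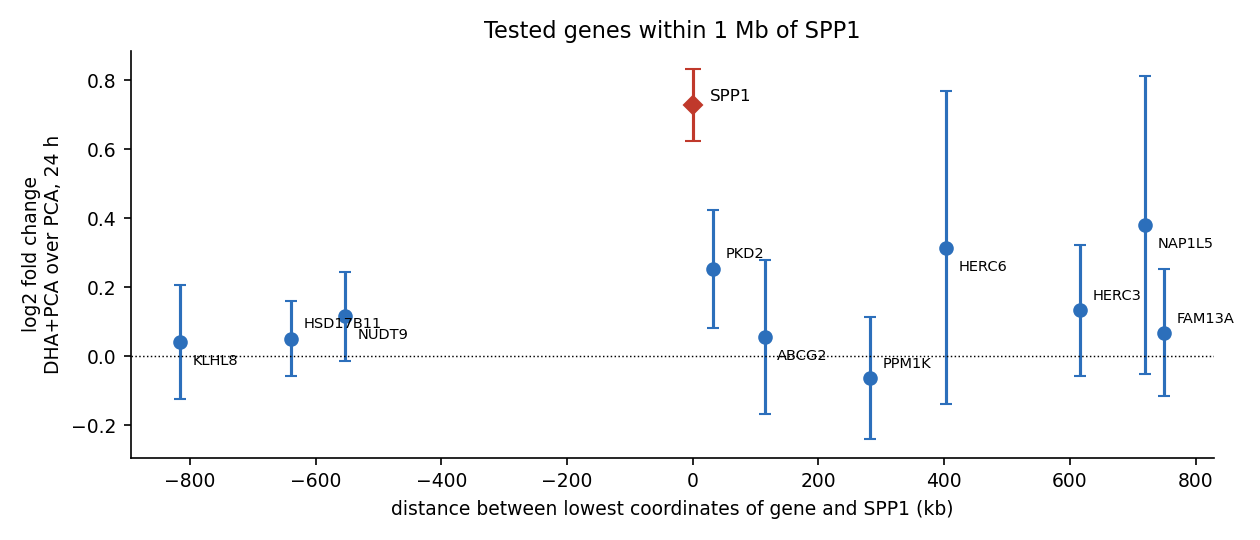
Log2 fold change of DHA+PCA over PCA at 24 h for SPP1 (diamond) and the 10 tested genes within 1 Mb, against the distance between their lowest coordinates and that of SPP1 in kb, with SEs as bars. The neighbours lie between -0.06 and 0.38, below SPP1 at 0.73.

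The genes whose pattern was most like that of SPP1 over the 18 libraries of 24 h, by Pearson's r of log2 CPM over 10564 genes, were AKR1C3 (r = 0.95), AKR1B15 (0.94), AKR1B10 (0.93), NQO1 (0.91), AKR1C2 (0.90) and GPX2 (0.90). The AKR genes encode aldo-keto reductases, which reduce carbonyl groups of lipids and steroids, NQO1 is a quinone reductase and GPX2 a glutathione peroxidase. AKR1B10 and AKR1B15, and likewise AKR1C2 and AKR1C3, are close paralogs that may share reads, so their separate values are uncertain. The most opposed were SEC16A (r = -0.88), CYP4F2 (-0.87) and SREBF1 (-0.86), the last of which encodes the lipogenic factor SREBP-1. The 18 points share treatments and replicate numbers, SPP1 was chosen for its DHA pattern, and the values of r are a description.

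At 24 h the 6 alike genes, like SPP1, were highest by mean with DHA+PRO. At 6 h AKR1C3, AKR1B15, AKR1B10, NQO1 and AKR1C2 had their highest mean with DHA alone, closely followed by DHA+PRO. For each of them the gap was smaller than the SD of the DHA group. NQO1, for example, was at 834 ± 164 CPM with DHA and 806 ± 98.4 CPM with DHA+PRO at 6 h (SD, n = 3). The order of these 2 treatments at 6 h was thus not resolved. AKR1B10 was at 45.3 ± 8.45 CPM in Ctrl, 86.6 ± 7.80 with DHA and 102 ± 9.54 with DHA+PRO at 24 h (SD, n = 3), and NQO1 was at 476 ± 20.1, 616 ± 15.6 and 698 ± 27.0 CPM. With PRO alone AKR1B10 was at 57.2 ± 16.2 CPM and NQO1 at 535 ± 52.6 CPM. Over the 6 h libraries the likeness was weaker, with r between 0.18 for GPX2 and 0.87 for NQO1. AKR1B10 and AKR1C2 rose with DHA at 6 h, by log2 fold changes of 0.34 (SE 0.07, adjusted p = 0.0363) and 0.33 (SE 0.06, adjusted p = 0.0107) in the pooled edgeR comparison, where SPP1 had 0.16 (SE 0.18). SREBF1 fell at 6 h, by 0.63 (SE 0.08, adjusted p = 0.000183).

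Over all 36 libraries the order of likeness was another. SULT2A1, a sulfotransferase of steroids and bile acids, came first (r = 0.77), followed by RPL4, NPC2, ALDH2, FGG and RPL13A (0.74 to 0.70), and the most opposed were MCOLN1 (-0.73), SH3PXD2A, SHCBP1 and SOGA1. The r of SULT2A1 with SPP1 was 0.97 over the 6 h libraries, where the replicate number held most of the SPP1 spread, and 0.41 over the 24 h libraries. No gene named for the 24 h libraries was among those named for all 36.

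**Figure D5:**
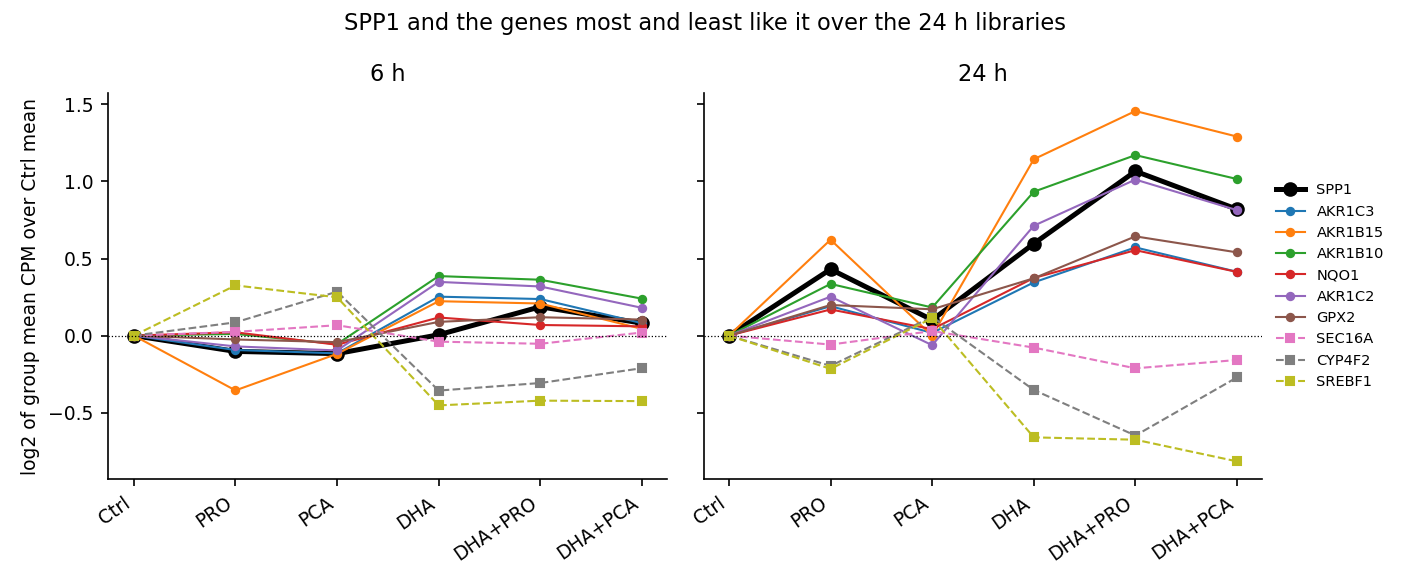
Log2 ratio of the group mean CPM to the Ctrl mean of the same time for SPP1 (black), the 6 genes most like it over the 24 h libraries (solid lines) and the 3 most opposed (dashed lines), at 6 h (left) and 24 h (right). At 24 h SPP1 and its 6 most alike genes are highest with DHA+PRO, which the choice of SPP1 and of these genes favoured. At 6 h SPP1 stays within 0.2 of 0 while SREBF1 is below 0 in all DHA groups.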

How the data were processed

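RNA-seq libraries (Illumina TruSeq RNA v2, poly(A) enriched, no strand marking) from 36 HepG2 cultures were analysed. Per the labels and the study's methods, the authors aligned reads with STAR to hg19/GRCh37 and counted them per RefSeq gene with the iRNA-seq pipeline. The deposited table, made by the authors, holds raw counts, with 1 row per gene and the gene's counted length. Versions are not given in the sources used here. Without strand, reads from an overlapping antisense gene could not be separated.

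Counts were filtered (filterByExpr), TMM-scaled and fitted with edgeR 4.0.16 (R 4.3.3) by quasi-likelihood, per time point (18 libraries, 6 groups) or jointly (36 libraries, 12 groups) for comparisons of time. The Benjamini-Hochberg adjustment ran over every tested gene, with 0.05 as the threshold, and SEs were derived from the F statistic. The fit was tested on simulated counts with known changes. RPKM used the deposited lengths. Pooled DHA comparisons set the 3 groups with DHA against the 3 without it. None of the 630 pairs of libraries looked like a duplicate (chi-square divided by its degrees of freedom at least 1.89). Precision is limited by the spread between replicates more than by depth, and counting errors do not cover PCR duplicates.

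Libraries of 1 time with the same replicate number deviated together (mean residual correlation 0.267 at 6 h and 0.158 at 24 h). Between different numbers the mean was -0.130 and -0.078. Of 45 pairs sharing a number, 38 at 6 h and 34 at 24 h were over 0.1. The column names repeat the same 3 sets of numbers in every treatment, without saying what they count. These values go with a pairing by number, but no source states that a number is the same culture in every treatment. The main fit had no replicate block, so its SEs hold the spread between the numbers. SPP1 and the lists were chosen with earlier results of these data known. Genes were named by a rule: the called members of each list, or else its 3 most abundant, and the neighbours with at least 1 CPM. The rule also named the 6 genes highest and 4 lowest in Pearson's r (24 h and all 36 libraries) among genes of average log2 CPM of at least 2. CD44, FAM20C, FN1, SPARC, RUNX1, the metalloproteases and the factors below the filter were chosen after their values were seen. So were the genes that rose with DHA+PCA over PCA. Alternatives were DESeq2 1.42.0, limma 3.58.1 on log2(CPM + 1), other scalings and filters, a replicate block, the library series, a thinned deep library and leaving out each library. Some genes that the rule names are not reported here. Promoter windows came from RefSeq tables, gene models from GENCODE.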

Additional observations from a re-analysis of the deposited data

How the results depend on the processing

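Of 194 values of tested SPP1 fold changes under alternatives, 165 kept their direction and side of the threshold, 22 changed sign, 7 passed the threshold newly and 0 lost it, and of 162 values given as a description 5 changed sign, all when a library was left out of DHA+PRO minus the sum of DHA and PRO. DHA+PCA over PCA at 24 h passed under every alternative run (0.72 to 0.73, adjusted p 9.08e-09 to 0.000877, and leaving out a library 0.66 to 0.82, adjusted p 0.000360 to 0.00861). Beside those from leaving out a library, the sign changes among tested values were in 2 results near 0: DHA against Ctrl at 6 h was -0.0025 with the replicate block, -0.0033 with the library series as a factor and -0.0023 by limma on log2(CPM + 1), and PCA at 24 h against 6 h was 0.016 with the replicate block, 0.062 with the library series, 0.020 with a replicate block shared by both times (chosen after seeing the data), 0.0039 with upper quartile scaling and 0.013 by limma. Leaving out each library moved DHA against Ctrl at 6 h between -0.30 and 0.26, DHA+PRO between -0.16 and 0.44, DHA+PCA between -0.29 and 0.33, PRO between -0.38 and 0.16, PCA between -0.42 and 0.14, DHA+PRO against DHA between -0.17 and 0.49, and PCA at 24 h against 6 h between -0.20 and 0.27. Within 6 h the replicate 1 libraries set these extremes. DHA+PRO minus the sum of DHA and PRO ranged from -0.04 to 0.15.

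With the replicate block, whose numbers no source states to pair the samples, the dispersion of SPP1 at 6 h (biological coefficient of variation) went from 0.267 to 0.0645. PRO at 24 h against 6 h then passed (0.32, adjusted p = 0.00108, edgeR), as did DHA+PCA (0.57, adjusted p = 1.93e-07) and the change of the DHA effect with time (0.55, adjusted p = 0.0183), while the pooled DHA effect at 6 h did not (0.15, adjusted p = 0.237). For PRO and DHA+PCA, this block leaves the spread between cultures out of the error of the time comparison. In the change of the DHA effect with time, a shift shared by a replicate number within a time cancels. A block shared by both times assumes the same shift of a number at each time, while replicate 1 was highest for SPP1 at 6 h only. It gave 0.57 (adjusted p = 0.0353) for DHA+PCA, but 0.32 (adjusted p = 0.273) for PRO and 0.55 (adjusted p = 0.684) for the change with time, which then did not pass. DHA+PCA at 24 h against 6 h also passed with the library series (0.61, adjusted p = 0.0432), with only the groups compared (0.51, adjusted p = 0.0330) and without DHA+PCA replicate 1 of 6 h (0.87, adjusted p = 0.0232), its range being 0.33 to 0.87 when a library was left out. Residual correlations of each library with those of other treatments were averaged by replicate number. The highest mean was with the library's own number for 16 of 18 libraries at 6 h and 17 of 18 at 24 h, a hint from the data. The block raised called genes from 24 to 64 in the pooled 6 h comparison, from 146 to 367 at 24 h, from 47 to 135 in DHA+PRO against Ctrl at 24 h, and from 33 to 79 in DHA+PCA over PCA. Among the secreted proteins it raised the members called from 3 to 5 (pooled, 24 h), 1 to 2 (DHA+PRO) and 0 to 1 (DHA+PCA over PCA, as did DESeq2). By Spearman's rho 8 of the 10 alike or opposed genes of 24 h were named again, and 6 of 10 over all libraries. In the fit without the block, the spread between replicates at 6 h, not depth, limits what could be seen of SPP1 there.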
